A study of Sus scrofa with 6 samples.

Results

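The enzymes described here protect cells against oxidants or convert drugs, steroids and other small molecules, and they were read on Affymetrix Porcine Genome Arrays of aortic valve leaflets from male and female pigs. Genes were chosen by name. They are the superoxide dismutases, catalase, glutathione peroxidases, peroxiredoxins, the thioredoxin system, glutathione synthesis enzymes, glutathione S-transferases, metallothioneins, NQO1, aldehyde dehydrogenases, aldo-keto reductases, cytochromes P450 with their reductase POR, the epoxide hydrolase EPHX1, flavin monooxygenases, sulfotransferases and glucuronosyltransferases. They came to 84 genes, 83 of the 6765 that the array annotation names with a single symbol and CYP3A4, named from the study's own list of called genes. Each gene was represented by its probe set with the highest mean. The oxidant-sensing factor NFE2L2 and its inhibitor KEAP1 were also looked for and had no probe set with a single symbol, so 12 of 14 genes sought by exact name were found.

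Superoxide dismutases turn superoxide into hydrogen peroxide, which catalase, glutathione peroxidases and peroxiredoxins reduce to water with electrons that come, for the latter enzymes, from glutathione or thioredoxin. Cytochromes P450, flavin monooxygenases and aldehyde dehydrogenases oxidize lipophilic compounds, and glutathione S-transferases, sulfotransferases and glucuronosyltransferases attach soluble groups to the products. The same drug-handling families also process endogenous retinoids, steroids, sterols and lipid peroxidation products, and many of them are best known from the liver. The question asked of each enzyme was whether its transcript differed between the sexes in healthy leaflet tissue.

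The arrays held RNA of 3 castrated male pigs and 3 female pigs of mixed breed, 1 pig per array, all 5 months old, about 90 kg in weight and obtained from a slaughterhouse. All leaflets had been taken within 5 hours of death and scraped with a scalpel to remove the endothelium and leave valvular interstitial cells. Values are log2 expression from Robust Multi-array Analysis (RMA), array medians lay between 7.33 and 7.38, and arrays correlated at 0.987 to 0.993 within a sex and at 0.972 to 0.987 between the sexes. Probe sets were tested with limma over the 23999 probe sets that are not controls, and again over the 2412 probe sets with the highest coefficient of variation (CV, SD divided by mean), here termed the CV filter, a reading of a CV filter whose details the study does not give in full. A probe set was called at an adjusted p under 0.05 and a difference of at least 2-fold. A log2 fold change is the male mean minus the female mean, so negative values mean lower expression in males.

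Several measures moved with sex or with a single array. The 9 measured endothelial markers summed to 13.42 to 14.56 on the log2 scale in males and 12.74 to 13.49 in females, 8 of the 9 had the higher mean in males, and their median log2 fold change was 0.90, so transcripts of endothelial genes remained after scraping (PECAM1 at 11.83 to 13.69). Of the endothelial markers, ICAM2 (log2 fold change 1.70) and ESAM (1.59) were called higher in males with the CV filter (limma, adjusted p = 0.0260 and 0.0395). None was called over all probe sets. The 8 interstitial and fibroblast markers summed to 16.29 to 16.40 in males and 16.36 to 16.58 in females. All 6 hepatocyte markers had the lower mean in males, with sums of 11.38 to 12.19 in males and 11.94 to 12.45 in females that overlapped, and 2 of the 6, ALB and FGB, were under the 25th percentile of all probe sets (5.55). Of the 6 cardiomyocyte markers, 5 were also under that percentile. The log2 signal of the actin control at its 3′ end minus that at its 5′ end, a measure of RNA integrity, was 2.35 to 2.57 in males and 2.84 to 3.80 in females, with the highest value in female replicate 3, which also stood apart for GAPDH (2.69, other arrays 1.78 to 2.14) and EF1A (2.57, other arrays 1.28 to 1.46). The part of these measures in the differences below was not tested. In whole tissue, fewer cells of a type and less RNA per cell cannot be told apart.

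Most antioxidant and drug-metabolizing enzymes differed little between male and female leaflets. The largest differences were in part of the CYP3A subfamily, where CYP3A46 and CYP3A29 were 7.46-fold and 4.26-fold lower in males. CYP3A4 was 3.22-fold lower too, but its probe set was taken from a list called on these same arrays, so it had to differ, and counts below are also given over the other 83 genes. The male means of CYP3A46 (5.12) and CYP3A4 (4.71) lay under the 25th percentile of all probe sets, so these folds are against weak signals and their exact size is uncertain. None of the 84 genes was called over all probe sets, where 0.167% of probe sets were called higher and 0.138% called lower in males, and the smallest adjusted p from limma among them was 0.0704. At an unadjusted limma p under 0.05 there were 14 genes, 16.7% of the enzymes against 16.9% of all probe sets, and 12 of these were lower in males. Without CYP3A4 there were 13 (15.7%). Over all probe sets the share at this limit was not split by direction, so the 12 have no baseline. With the CV filter, which kept 12 of the 84 genes, CYP3A46, CYP3A29 and, by its choice, CYP3A4 were called, all lower in males, while 4.6% of the probe sets kept were called higher and 2.99% lower. Because a CV over all arrays rises where the sexes differ, the filter favors such genes.

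The difference was under 0.25 on the log2 scale for 62 genes (73.8%, against 69.4% of all probe sets). The median log2 fold change was -0.04 (all probe sets -0.01), and 48 genes had the lower mean in males (57.1%, against 50.9%). For 68 genes the 95% interval of the difference lay inside 2-fold in either direction. The share of all probe sets with such an interval was not counted. The median half-width of the interval was 0.33 for the enzymes and 0.32 for all probe sets. A difference of 2-fold or more was measured for 6 genes (7.14%, and 6.02% without CYP3A4, against 2.18% of all probe sets), namely CYP3A46, CYP3A29, CYP3A4, MT1A and CYP26A1 with the lower mean in males and GPX1 with the higher. Male and female values were separate for 13 genes lower in males (15.5%, or 12 genes and 14.5% without CYP3A4, against 11.4% of all probe sets) and for 3 genes higher in males (3.57%, against 11.1%).

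**Figure D1:**
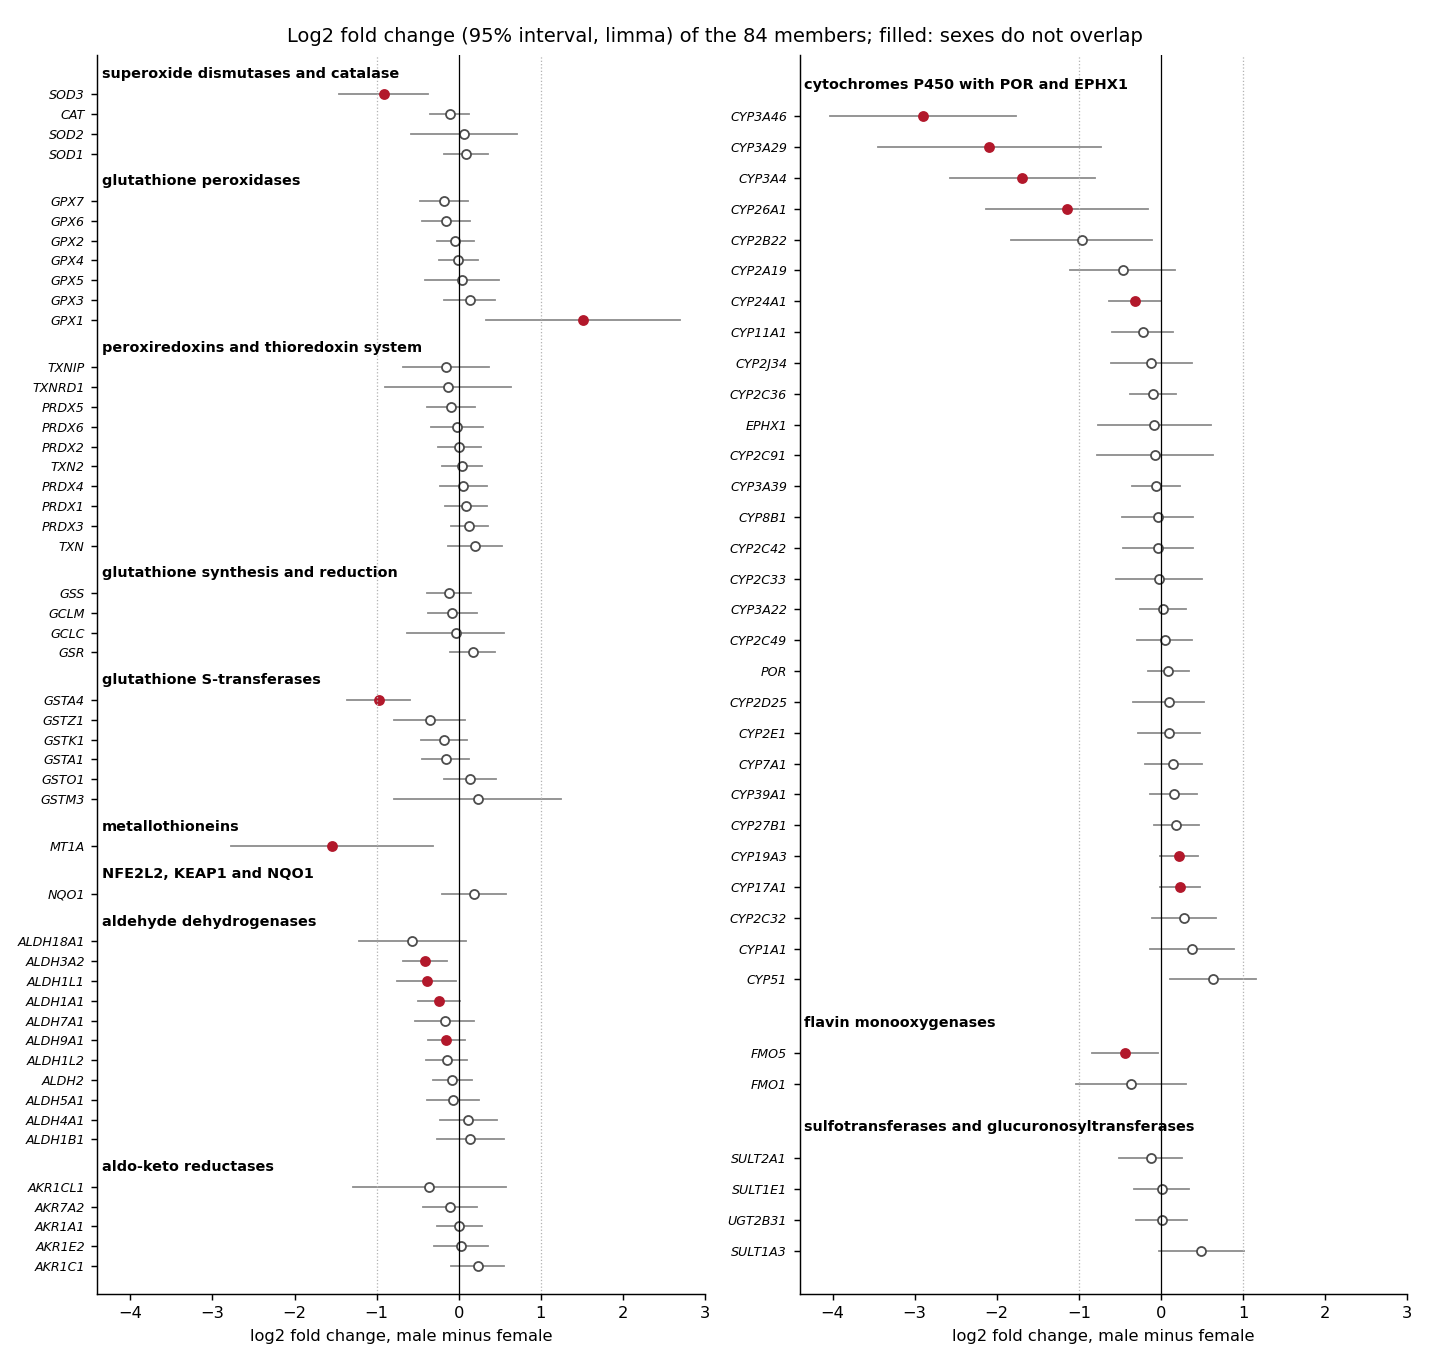
Log2 fold change (male minus female) of each of the 84 enzymes with its 95% interval from limma, grouped by family, where filled points mark genes whose male and female values do not overlap and dotted lines mark 2-fold. Most points lie within 0.25 of the zero line, while CYP3A46, CYP3A29 and CYP3A4 lie at -2.90, -2.09 and -1.69 and GPX1 at 1.51.

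**Figure D2:**
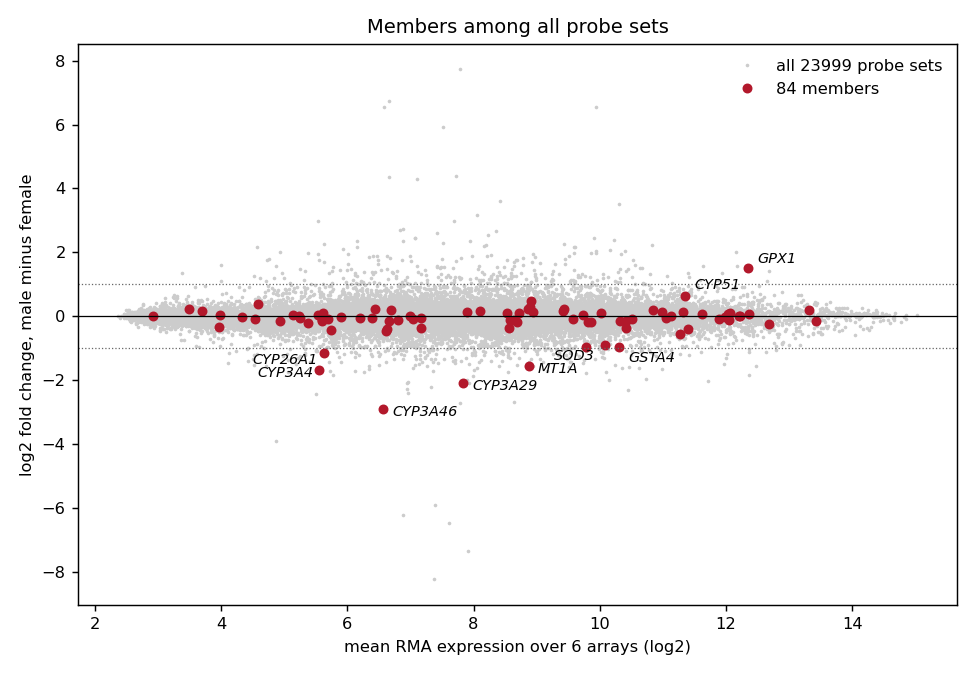
Log2 fold change (male minus female) against the mean RMA expression over 6 arrays for all 23999 probe sets (grey) and the 84 enzymes (red), with dotted lines at 2-fold. Points at or beyond the dotted lines are 6 of the enzymes and 2.18% of all probe sets.

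Among the superoxide dismutases and catalase, SOD3, the extracellular enzyme that binds the matrix, was the gene with a visible difference. Its log2 values were 9.13, 9.78 and 9.94 in males and 10.30, 10.52 and 10.77 in females. All females were above all males, with a log2 fold change of -0.91 (standard error 0.23, limma, adjusted p = 0.151), and the difference did not pass. The cytosolic SOD1 had a log2 fold change of 0.08, the mitochondrial SOD2 0.06 and catalase (CAT) -0.11, each with overlapping sexes. Catalase is tightly bounded, with a 95% interval of -0.35 to 0.13, whereas SOD2 ranged from 11.05 to 12.01 within the females alone and its interval ran from -0.58 to 0.71.

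GPX1, the widely expressed selenium-dependent peroxidase that uses glutathione to reduce hydrogen peroxide, was the enzyme with the largest positive difference. It measured 13.08, 13.06 and 13.17 in males and 12.91, 10.93 and 10.93 in females. The males were alike, female replicate 1 lay just under them, and female replicates 2 and 3 were lower still by about the same amount. The log2 fold change was 1.51 (standard error 0.50) with an adjusted p of 0.216 from limma over all probe sets and 0.0754 with the CV filter, and without female replicate 1 it was 2.17 and was called (adjusted p = 0.00228 over all probe sets). Without female replicate 3 it was 1.18. The other 6 glutathione peroxidases had log2 fold changes from -0.18 to 0.13 and overlapped. Among these, GPX5, best known from the epididymis, was under the 25th percentile in these leaflets with 0.04.

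The peroxiredoxins and the thioredoxin system, 10 genes, showed no called difference and no gene whose sexes were separate, and their log2 fold changes ran from -0.16 to 0.19. Thioredoxin (TXN) was at 0.19, its mitochondrial form TXN2 at 0.04, the reductase TXNRD1 at -0.13 and the thioredoxin-binding inhibitor TXNIP at -0.16. TXNRD1 had values of 10.36, 10.36 and 10.04 in males and 10.01, 11.19 and 9.96 in females. Female replicate 2 was the single high array, and a second probe set of TXNRD1 was also highest there (11.03). The third was not, at 8.83 on that array and 8.79 to 9.15 on the others, and its log2 fold change was 0.08. PRDX4, a peroxiredoxin of the secretory pathway, had a further probe set that differed from its representative (0.06), with 6.06, 6.88 and 6.13 in males against 7.87, 6.90 and 7.49 in females. In that probe set male replicate 2 and female replicate 2 nearly met, and the log2 fold change of -1.06 did not pass (limma, adjusted p = 0.177).

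Glutathione synthesis and reduction gave values close to 0 for all 4 genes. GCLC, the catalytic subunit of the rate-limiting ligase, had a log2 fold change of -0.04, its modifier subunit GCLM -0.08, glutathione synthetase (GSS) -0.12 and glutathione reductase (GSR) 0.17. The sexes overlapped for each of them. GCLC was the least precise, with values of 7.59, 7.17 and 6.68 in males and 6.95, 7.52 and 7.09 in females and a 95% interval of -0.63 to 0.55. NQO1, the quinone reductase that is a standard target of NFE2L2, measured 11.03, 10.86 and 10.93 in males and 10.42, 10.84 and 11.01 in females. These values overlapped, and the log2 fold change was 0.19.

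GSTA4, the transferase that conjugates reactive aldehydes from lipid peroxidation, had the smallest p of the enzymes outside CYP3A. Its values were 9.54, 9.75 and 10.15 in males and 10.74, 10.86 and 10.77 in females. The females were close together and the males all lower, 1.97-fold on average (log2 fold change -0.98, standard error 0.16, limma, adjusted p = 0.0704 over all probe sets), which lies just under the 2-fold limit. Without male replicate 3, the highest male, it was -1.14 and was called (limma, adjusted p = 0.0249). The CV filter did not keep GSTA4, and a second probe set for it gave -0.12 with overlap, so the difference rests on a single probe set. The other 5 transferases overlapped, among them GSTZ1, an enzyme of tyrosine breakdown, at -0.35, GSTA1 at -0.16 and GSTO1 at 0.14. Further probe sets of GSTA1, under the 25th percentile, had the other sign (0.06 with overlap, and 0.33 with every male above every female).

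MT1A, a metallothionein that binds zinc and copper, was the only metallothionein found, and its probe set is of a type whose probes can match several related transcripts. It measured 7.58, 8.50 and 8.24 in males and 9.15, 10.90 and 8.89 in females. All females were above all males, with female replicate 2 far above the other females, and the log2 fold change of -1.54 (standard error 0.52) did not pass (limma, adjusted p = 0.221 over all probe sets, 0.0756 with the CV filter). Without female replicate 2 the log2 fold change was -0.92.

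**Figure D3:**
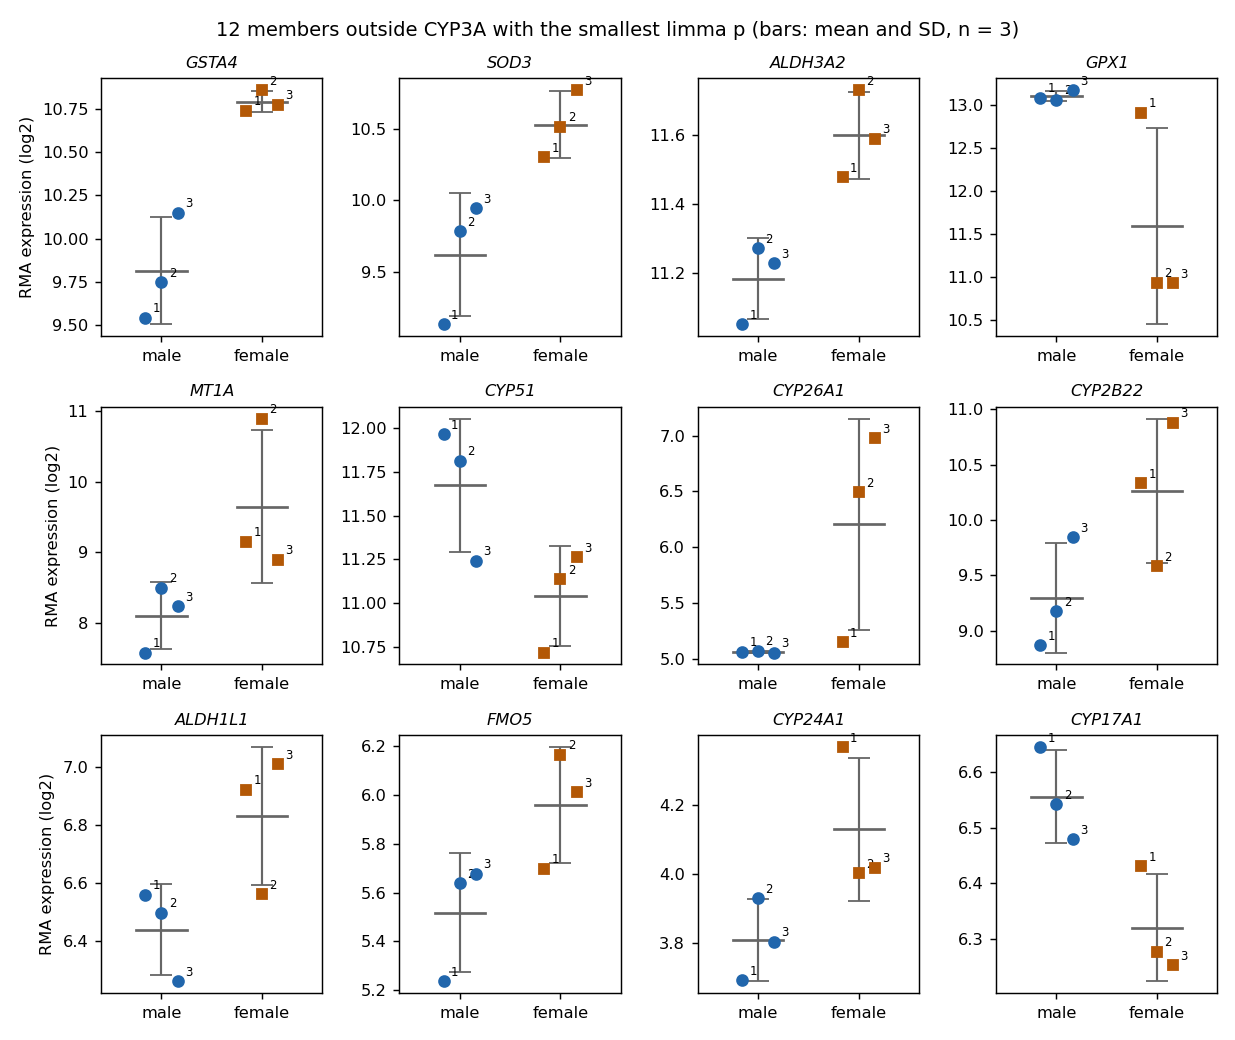
RMA expression (log2, y axis, a separate scale in each panel) on each numbered male (circles) and female (squares) array for the 12 enzymes outside CYP3A with the smallest limma p, with the mean and SD of 3 arrays as bars. GPX1 and CYP26A1 show female replicate 1 next to the males and the other females apart, MT1A a single high female, and GSTA4, SOD3 and ALDH3A2 separate sexes.

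The aldehyde dehydrogenases leaned one way, with 9 of 11 genes lower in mean in males (50.9% of all probe sets were) and a median log2 fold change of -0.15, although none was called. ALDH3A2, which oxidizes long-chain fatty aldehydes, measured 11.05, 11.27 and 11.23 in males and 11.48, 11.73 and 11.59 in females. These values did not overlap, and the log2 fold change was -0.41 (standard error 0.12, limma, adjusted p = 0.173). Values were also separate, and lower in males, for the folate enzyme ALDH1L1 (-0.39), the retinaldehyde dehydrogenase ALDH1A1 (-0.24) and ALDH9A1 (-0.15), which acts in carnitine synthesis. ALDH18A1, which makes a proline precursor, was at -0.57 with overlap, since female replicate 2 alone was high at 12.24. ALDH5A1, which breaks down a metabolite of the transmitter GABA, was at -0.07. Further probe sets of ALDH1A1 and ALDH3A2 also had lower means in males but overlapping sexes, while those of ALDH1L1 (0.05), ALDH7A1 (0.11) and ALDH4A1 (0.16, with every male above every female) had higher means in males. In all, 3 of 5 further probe sets of the family were higher in mean in males.

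Of the 5 aldo-keto reductases, 3 had the higher and 2 the lower mean in males, and all overlapped. The general aldehyde reductase AKR1A1 was at 0.00, with a 95% interval of -0.27 to 0.28, and the hydroxysteroid dehydrogenase AKR1C1, under the 25th percentile, at 0.23. AKR1CL1 had 3 probe sets at -0.36, -0.95 and -0.87. The sexes were separate only in the last of them, which measured 5.14, 5.73 and 5.69 in males and 6.64, 6.10 and 6.45 in females (limma, adjusted p = 0.136).

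The CYP3A enzymes oxidize a wide range of drugs and steroids and are the leading P450 subfamily of the liver. CYP3A46 measured 4.25, 6.17 and 4.95 in males and 8.59, 7.75 and 7.72 in females. Its male mean was 5.12 ± 0.97 (SD, n = 3) and its female mean 8.02 ± 0.50, with every female at least 1 log2 unit above every male. The male mean was under the 25th percentile of all probe sets (5.55), so the gene passed that mark through the females. The transcript fell by 2.90 on the log2 scale (standard error 0.48), with a limma adjusted p of 0.00648 with the CV filter and 0.0704 over all probe sets. It was called with the CV filter whichever of the 6 arrays was left out, with a log2 fold change of -3.42 to -2.46.

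CYP3A29 measured 6.83, 8.02 and 5.50 in males and 8.81, 8.53 and 9.29 in females. The females were within 0.75 of each other and the males spread over 2.52, so male replicate 2 came close to the lowest female. The log2 fold change was -2.09 (4.26-fold, standard error 0.58), with a limma adjusted p of 0.0453 with the CV filter and 0.170 over all probe sets. The call was lost without male replicate 1 (adjusted p = 0.0916), female replicate 1 (0.0703) or female replicate 3 (0.109), each from limma with the CV filter.

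The probe set for CYP3A4 has no symbol in the array annotation and carries its name from the study's list, which was itself called on these arrays, so its values are a description and not independent evidence. It measured 4.64, 5.29 and 4.18 in males and 7.04, 6.37 and 5.77 in females, with -1.69 as the log2 fold change (3.22-fold). The sexes did not overlap. With the CV filter its adjusted p was 0.0395 from limma and its call was lost without male replicate 1, female replicate 1 or female replicate 2. Without male replicate 1, CYP3A46 was therefore the only enzyme called. The same list gives the name CYP3A4 to the probe sets that the annotation names CYP3A46 and CYP3A29.

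Probe sets under the remaining CYP3A symbols did not share this difference. CYP3A22 measured 6.97 to 7.04 in males and 6.80 to 7.16 in females, and its log2 fold change of 0.02 had a 95% interval of -0.26 to 0.30. CYP3A39 was at -0.06 and its other probe set at 0.32, with overlap in both. RefSeq lists CYP3A39 as a synonym of CYP3A46. By that naming the CYP3A46 difference rests on a single probe set, and the gene is counted here under both symbols. RefSeq also places CYP3A22, CYP3A46 and CYP3A29 next to each other on the chromosome, so probe sets assigned to the same or adjoining genes differed. Because the copies are close relatives, how far each probe set reads a single gene is uncertain. Male replicate 2 was the highest male for CYP3A46, CYP3A4 and CYP3A29. Of the 6 hepatocyte markers, all with the lower mean in males, ALB had a log2 fold change of -0.22, FGB -0.02, TTR -0.04, APOA1 -0.36, TF -0.67 and SERPINA1 -0.93. None of them was called and the sexes overlapped for each, and their part in the CYP3A difference was not tested.

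**Figure D4:**
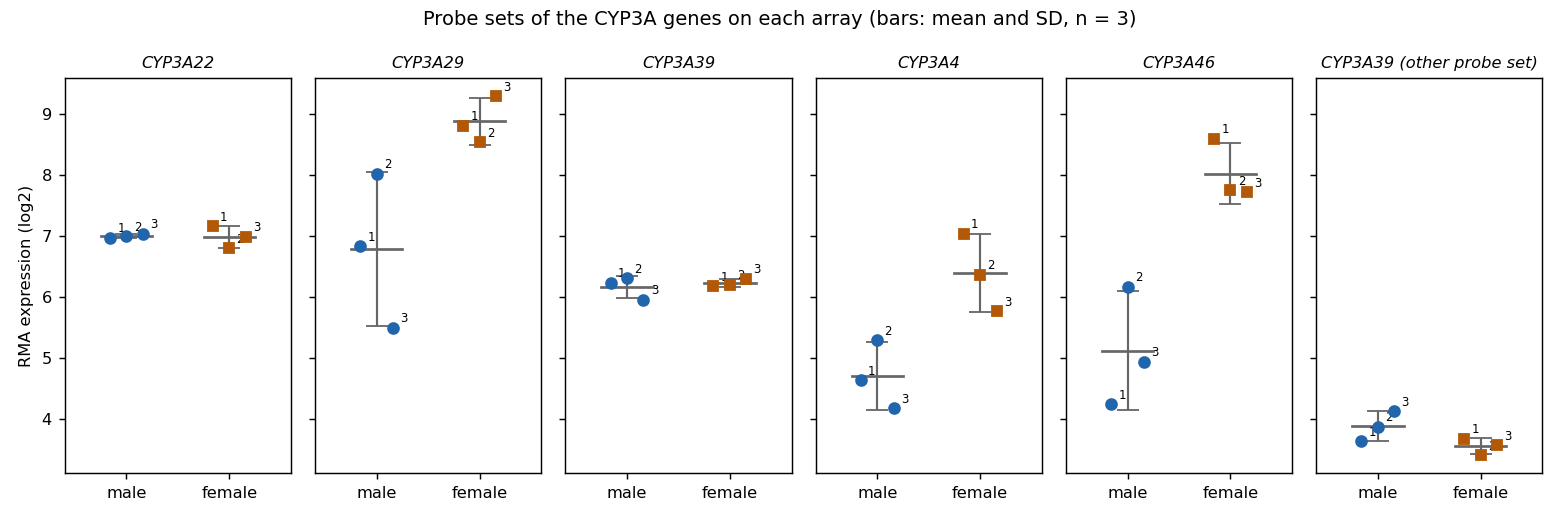
RMA expression (log2, shared y axis) of the CYP3A probe sets on each numbered male (circles) and female (squares) array, with the mean and SD of 3 arrays as bars. CYP3A46, CYP3A4 and CYP3A29 are lower in every male than in any female, while CYP3A22 and both CYP3A39 probe sets overlap.

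Outside CYP3A, 22 cytochromes P450 split evenly, 11 with the higher and 11 with the lower mean in males, and none was called. CYP26A1, the hydroxylase that clears retinoic acid, measured 5.06, 5.07 and 5.06 in males and 5.15, 6.49 and 6.98 in females. The males were at a single low value and female replicate 1 beside them, so the log2 fold change of -1.14 (limma, adjusted p = 0.244 over all probe sets) came from female replicates 2 and 3. It was -1.67 and called without female replicate 1 (limma, adjusted p = 0.0365 over all probe sets) and -0.76 without female replicate 3. GPX1 and CYP26A1 thus shared the array that set their result, in opposite directions.

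CYP2B22, a drug-metabolizing enzyme, measured 8.87, 9.18 and 9.84 in males and 10.33, 9.58 and 10.88 in females. Male replicate 3 was above female replicate 2, and the log2 fold change was -0.97 (limma, adjusted p = 0.257). CYP51, the lanosterol demethylase of cholesterol synthesis, measured 11.96, 11.81 and 11.24 in males and 10.72, 11.14 and 11.26 in females. Its highest female exceeded its lowest male by a narrow margin, and the log2 fold change was 0.63 (limma, adjusted p = 0.234).

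Enzymes of steroid and vitamin D metabolism differed by small amounts. CYP17A1, which makes androgen precursors, was at 0.24 and CYP19A3, one of the pig aromatases, at 0.22, both higher in every male than in any female and neither called. Further probe sets of CYP19A3 did not repeat this, and one of them was separate in the other direction (-0.24). The vitamin D hydroxylase CYP24A1, under the 25th percentile, was at -0.32 with separate sexes. CYP1A1, induced by aryl hydrocarbons, was at 0.38, CYP2A19 at -0.47, CYP2C32 at 0.28 and the bile acid enzyme CYP7A1 at 0.15, each with overlap. The P450 reductase POR was at 0.09 (95% interval -0.16 to 0.34), and EPHX1, which opens epoxides, at -0.08 with a wider interval of -0.76 to 0.60.

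Both flavin monooxygenases had lower means in males, FMO5 at -0.44 and FMO1 at -0.37. FMO5 measured 5.24, 5.64 and 5.68 in males and 5.70, 6.17 and 6.01 in females. The sexes were separate by the narrow gap between male replicate 3 and female replicate 1, and FMO5 was not called (limma, adjusted p = 0.265). Among the sulfotransferases and glucuronosyltransferases, SULT1A3, which sulfates phenols and catecholamines, was at 0.49 with overlap, and the estrogen sulfotransferase SULT1E1, under the 25th percentile, was at 0.01.

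Variation among animals of the same sex was small for most enzymes. The median within-sex SD was 0.18 on the log2 scale (all probe sets 0.17), and 10 enzymes reached 0.5 or more. The share of all probe sets at that limit was not counted. CYP3A29 (0.93), MT1A (0.84), GPX1 (0.81) and CYP3A46 (0.77) had the highest values, so 4 of the 6 enzymes with at least 2-fold differences were also the 4 most variable enzymes. For GPX1 and CYP26A1 the spread lay in the females (1.98 and 1.83 between the highest and lowest female, 0.11 and 0.02 among the males), and for CYP3A29 and CYP3A46 it lay more in the males. Female replicate 2 was the highest of the 6 arrays for 25 of the 84 enzymes, while 16.4% of all probe sets were highest there. Male replicate 1 was the lowest for 23 of the 84 enzymes, while 23.1% of all probe sets were lowest there. Without female replicate 3, the array with the largest differences between 3′ and 5′ control signals, the log2 fold change was -3.05 for CYP3A46, -1.89 for CYP3A29, -2.00 for CYP3A4, -1.92 for MT1A, -0.98 for GSTA4 and -0.79 for SOD3. For CYP3A29 and SOD3 it was smaller in size than with all arrays (-2.09 and -0.91), and CYP3A29 lost its call with the CV filter. The log2 fold change was also smaller in size for CYP26A1 (-0.76 from -1.14), GPX1 (1.18 from 1.51), CYP2A19 (-0.14 from -0.47) and CYP2B22 (-0.66 from -0.97).

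Of the 26 enzymes with more than 1 probe set, 40 further probe sets were measured. Their log2 fold change had the sign of the representative in 19 and the other sign in 21, and none was called in either comparison.

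Genes that work with these enzymes were read from lists of NFE2L2-linked and glutathione or thioredoxin genes, NADPH supply, other drug-handling enzymes and transporters, oxidant sources, and sensing factors. Of 141 listed genes 82 were measured, 39 with the higher and 43 with the lower mean in males, and the median log2 fold change was -0.0047. None was called over all probe sets or with the CV filter, and 12 had an unadjusted limma p under 0.05 (14.6%, against 16.9% of all probe sets). Male and female values were separate for 15 of the 82 (18.3%), 6 of them higher in males and 9 lower. Of all probe sets, 11.1% were separate and higher in males and 11.4% separate and lower. The NFE2L2-linked list had 23 of 42 genes measured, 13 higher and 10 lower in mean, with a median of 0.05. The list of other drug-handling genes had 26 of 48 measured, 10 higher and 16 lower.

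EPHX2, the soluble epoxide hydrolase, had the smallest p of the measured genes of these lists. It measured 8.91, 8.94 and 8.99 in males and 9.51, 9.66 and 9.55 in females. Both sexes were tight and separate, with a log2 fold change of -0.63 (limma, adjusted p = 0.0606 over all probe sets) that is under the 2-fold limit. LOX, which crosslinks collagen and elastin and releases hydrogen peroxide, was at -0.43, and PAPSS2, which makes the sulfate donor of the sulfotransferases, at -1.05. Both were lower in every male than in any female. The microsomal transferase MGST3 (0.44), the selenoprotein SELENOW (0.38) and the lactonase PON2 (0.48) were higher in every male than in any female. Adjusted p values of these 5 genes ranged from 0.117 to 0.227 in limma over all probe sets.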

How the data were processed

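RNA of leaflets from 3 male and 3 female pigs was read on the Affymetrix porcine array. Deposited values are on a log2 scale, made by the authors with RMA (R 2.12.0), which corrects background, sets arrays to a common distribution and summarizes probes, so weak signals are compressed. No further normalization was applied, and precision is limited by the number of arrays. The labels' numbers name separate pigs, and p values measure the spread between these arrays.

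All 24123 probe sets were read, and 124 controls were left out of the test over all probe sets. Male minus female differences were fitted with limma 3.58.1 in R 4.3.3 (lmFit, eBayes, statmod 1.5.0) on every probe set, with Benjamini-Hochberg adjustment. Figures used matplotlib 3.10.9 in Python 3.11.15. The study's text names limma, a false discovery rate of 0.05, a 2-fold minimum and a CV filter, but not the share kept. Its supplement gives the filter's purpose as removing values that were too unlike between replicates, which is not what keeping high CVs does. Its listed P values fit 10% of the array, so the most variable 10% by the CV of the log2 values were kept here, a reading that may not be the study's filter. The fits were tested on simulated data.

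The array annotation gave 1 symbol for 10069 probe sets other than controls, and 82 of the 84 genes had a RefSeq entry (Sscrofa11.1), used for names and neighbors only. CYP19A1 and CYP27A1 were left out by the rule for the enzymes. Members and lists were chosen with earlier results of these data known. Enzymes were named if called, among the 24 smallest p values, highest or lowest in mean in their family, or on a short list of central genes, and other genes if called or among the 6 smallest p values. PRDX4, AKR1CL1, ALDH4A1, ALDH7A1, ALDH9A1, CYP3A22 and CYP3A39 were named after their values were seen. Alternatives left out each array, added a replicate block, centered arrays, changed the variance model, the CV filter, the low-value filter, the minimum fold or the probe set per gene.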

Additional observations from a re-analysis of the deposited data

How the results depend on the processing

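Over all probe sets, the number of enzymes called was 0 and ranged from 0 to 2 when single arrays were left out, with GSTA4 called without male replicate 3 (-1.14) and GPX1 (2.17) and CYP26A1 (-1.67) without female replicate 1. It was 0 with centered arrays, an intensity trend with robust eBayes, low probe sets left out, no minimum fold, the probe set with the highest SD, or a replicate block. With the CV filter, the 3 calls became 1 to 3 when single arrays were left out, 5 with a replicate block, 5 with an intensity trend and robust eBayes and 5 with the CV of linear values, and stayed at 3 with centered arrays, 25% or 5% of probe sets kept, no minimum fold or the probe set with the highest SD. CYP3A46 was among the calls with the CV filter under all of these. CYP3A4 and CYP3A29 were too, except in some of the runs that left out an array. MT1A was added in each setting with 5 calls, joined by GPX1 with the replicate block or linear values and by CYP26A1 with the intensity trend. The cause was not tested. Replicate numbers are not a stated pairing, and deviations of same-numbered arrays correlated at -0.10, 0.01 and 0.27, so the block is an arbitrary grouping. Of 46 named enzymes, 11 turned sign in at least 1 of 9 refits of the same probe set. These refits left out an array, added the block, centered arrays or changed the variance model. With all arrays, the log2 fold changes of those 11 were at most 0.16 in size. Other probe sets of a gene were not part of this count. The 0 calls among other pathway genes over all probe sets held in every alternative run over all probe sets. Alternatives with the CV filter were not counted for these genes. The number of arrays and signals near background limit small differences.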
